A study of Mus musculus with 27 samples.

Results

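The respiratory chain subunits of the mouse liver were followed across hepatocytes, hepatocyte organoids and periportal assembloids. Members were the rows of the deposited count table whose gene name starts with Nduf, Uqcr, Cox4 to Cox8 or Atp5, or is Sdha, Sdhb, Sdhc or Sdhd, and the rows of the mitochondrial genome whose name starts with mt-Nd, mt-Co or mt-Atp. The rule found 109 of the 21850 rows. Of these, 97 lie in the nuclear genome and 12 in the mitochondrial genome. The nuclear members held 38 subunits of complex I, 8 of its assembly factors, 4 subunits of complex II, 8 of complex III, 20 of complex IV, 18 of the ATP synthase and 1 pseudogene name (Cox5b-ps). The mitochondrial members held 7 subunits of complex I, 3 of complex IV and 2 of the ATP synthase. The row mt-Cytb, the only mitochondrially encoded subunit of complex III, was not matched by the rule and is given apart.

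Complexes I and II pass electrons from NADH and succinate to ubiquinone, complex III passes them on to cytochrome c, and complex IV gives them to oxygen. Complexes I, III and IV pump protons in doing so, and the ATP synthase uses the proton gradient to make ATP. All complexes but complex II mix subunits from the nuclear and the mitochondrial genome, so that their assembly needs both, and hepatocytes are rich in mitochondria.

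The 27 libraries fell into 9 conditions with 3 libraries each, and all came from C57BL/6 livers. Freshly isolated hepatocytes were titled WT, although the genotype label of replicate 3 reads MDR2-het. HepOrgs, organoids grown from WT primary hepatocytes, were taken at passage 2 in the expansion medium HM-Wnt (growth factors with Wnt conditioned medium, nicotinamide and inhibitors) or after a switch to the minimal medium MM, each for 7 days (1 week) or 14 days (2 weeks). Assembloids joined 10 HepOrgs, 1000 dissociated cholangiocytes and either 250 portal mesenchymal cells (homeostatic) or 2500 (fibrotic-like), and were kept in MM for 7 days (1 week) or 18 days (2.5 weeks). Both media held Wnt conditioned medium and a ROCK inhibitor. According to the methods of the study, the cholangiocytes and the mesenchymal cells generally came from reporter mice (nuclear tdTomato, PDGFRα-H2B-GFP). The labels do not tie replicates to animals or cultures, so p-values measure the spread between these libraries, which may be technical.

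Libraries held between 30289364 and 65348596 counts. The sum of 8 hepatocyte markers was 80978 to 110345 CPM (counts scaled to library size with TMM factors) in fresh hepatocytes, 12664 to 45191 in HepOrgs and 908 to 28626 in assembloids. Of 6 cholangiocyte markers, the sum was 11.6 to 143 CPM in fresh hepatocytes and 3571 to 15496 in HepOrgs, but Spp1 alone made up 3471 to 15430 CPM of it in HepOrgs. The others, Krt19 with at most 22.4 CPM among them, stayed at or under 45.3 CPM each. The sum of 6 endothelial markers was 26.6 to 126 CPM in fresh hepatocytes and at most 2.3 in every other library. The sum of 6 immune markers was 35.7 to 370 CPM in fresh hepatocytes and 7.54 to 754 CPM in HepOrgs. The 754 CPM came from replicate 3 of MM at 2 weeks, with Lyz2 at 703 CPM against at most 89.7 CPM in fresh hepatocytes. The other HepOrg libraries reached at most 69.5 CPM. Cd68 was at 6.17 to 44.6 CPM in HepOrgs and 1.49 to 8.36 CPM in fresh hepatocytes, while the Kupffer cell marker Clec4f was at 0 in all cultures. Replicate 2 of the homeostatic assembloids at 1 week stood apart, with 8465 genes above 0 counts against at least 14016 in the other libraries, Alb at 526 CPM and Krt19 at 1387 CPM. Replicate 3 of the fibrotic-like assembloids at 1 week was also low in Alb (607 CPM). In these bulk samples, fewer cells of a type and less RNA per cell cannot be told apart.

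The sequences of the mitochondrial members set how each could be counted. On chromosome 1 of GRCm39 (24651827 to 24655251, minus strand) lies a copy of 3425 bases of the mitochondrial genome (M, 6408 to 9832) that differs from it at 3 bases. It holds mt-Co2, mt-Atp8, mt-Atp6, mt-Co3 and mt-Nd3 whole. A read from these genes matches both places. The first stretch shown crosses the edge of the copy inside mt-Co1, and the second opens mt-Co3, which is copied without a difference. The third opens mt-Nd5, of which no 100-base window has an identical copy elsewhere. Windows whose copy differs at any base were not counted. Capitals mark bases that the nuclear copy shares.

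mt-Co1 (chrM:6378-6437, plus strand): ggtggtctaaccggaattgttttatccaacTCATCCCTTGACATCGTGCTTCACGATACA
mt-Co3 (chrM:8607-8666, plus strand): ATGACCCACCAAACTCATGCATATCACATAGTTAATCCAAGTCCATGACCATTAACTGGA
mt-Nd5 (chrM:11742-11801, plus strand): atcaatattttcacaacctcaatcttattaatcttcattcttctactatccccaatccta

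The median count over the libraries was 287532 for mt-Nd1 and 281680 for mt-Co1, but 606 for mt-Co3 and 217 for mt-Atp8. For 6 members (mt-Co2, mt-Co3, mt-Atp6, mt-Atp8, mt-Nd3 and mt-Nd4l) at least 98.8% of 100-base windows had an identical match elsewhere in the genome. Their counts cannot be read as levels. How the authors counted reads with several matches is not given in the sources used here. The other 6 mitochondrial members carried nearly all of the mitochondrial counts, although 60.8% of the windows of mt-Nd4 also had such a match. Of the length of mt-Co1, 30.1% lies in the copy on chromosome 1.

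Promoters of a lower and a higher member are shown because nuclear subunit genes are known for a GC-rich palindrome recognised by the nuclear respiratory factor NRF1, which is known as a regulator of these genes. The motif GCGCNNGCGC reads the same on both strands, and overlapping matches were counted. It was present in the 250 bases before the start of 16 of the 77 nuclear members found in the RefSeq table (20.8%; build GRCm38.p6), and of 5.6% of 27025 promoters in all. The promoter of Sdha, whose product is the flavoprotein that oxidises succinate, held 3 matches (capitals), and that of Cox7a2l held none.

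Sdha (GRCm38.p6, chr13:74350241-74350490, minus strand): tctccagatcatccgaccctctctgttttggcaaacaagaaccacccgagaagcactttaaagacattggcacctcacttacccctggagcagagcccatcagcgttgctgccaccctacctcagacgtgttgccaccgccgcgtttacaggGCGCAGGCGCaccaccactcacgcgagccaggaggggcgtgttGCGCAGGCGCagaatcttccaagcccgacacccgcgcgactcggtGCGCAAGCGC
Cox7a2l (GRCm38.p6, chr17:83514334-83514583, minus strand): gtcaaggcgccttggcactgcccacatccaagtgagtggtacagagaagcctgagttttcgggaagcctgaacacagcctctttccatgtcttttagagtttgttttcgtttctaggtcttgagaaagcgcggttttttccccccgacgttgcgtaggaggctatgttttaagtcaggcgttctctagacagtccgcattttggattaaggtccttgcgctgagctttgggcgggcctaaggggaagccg

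As shares of all counts, the summed members differed between fresh hepatocytes and every culture mainly on the mitochondrial side. Nuclear members took 1.55, 1.51 and 1.63% of counts in the 3 fresh libraries, 1.22 to 1.58% in HepOrgs and 1.14 to 1.53% in assembloids. How far the nuclear sum differed depended on the scaling. With TMM factors it was 21638 to 22459 CPM in fresh hepatocytes, 11742 to 17564 CPM in HepOrgs and 7541 to 17305 CPM in assembloids. Mitochondrial members took 3.14, 3.93 and 3.49% in fresh hepatocytes. In HepOrgs the mitochondrial share was 1.48 to 3.02%, and in assembloids it was 1.07 to 2.23%. The highest share in HepOrgs was that of replicate 3 of MM at 2 weeks, the library with 754 CPM of immune markers. A link between the 2 was not tested. No culture library reached the fresh range of the mitochondrial share. The lowest shares in HepOrgs were those in HM-Wnt at 2 weeks, at 1.54, 1.49 and 1.48%.

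**Figure D1:**
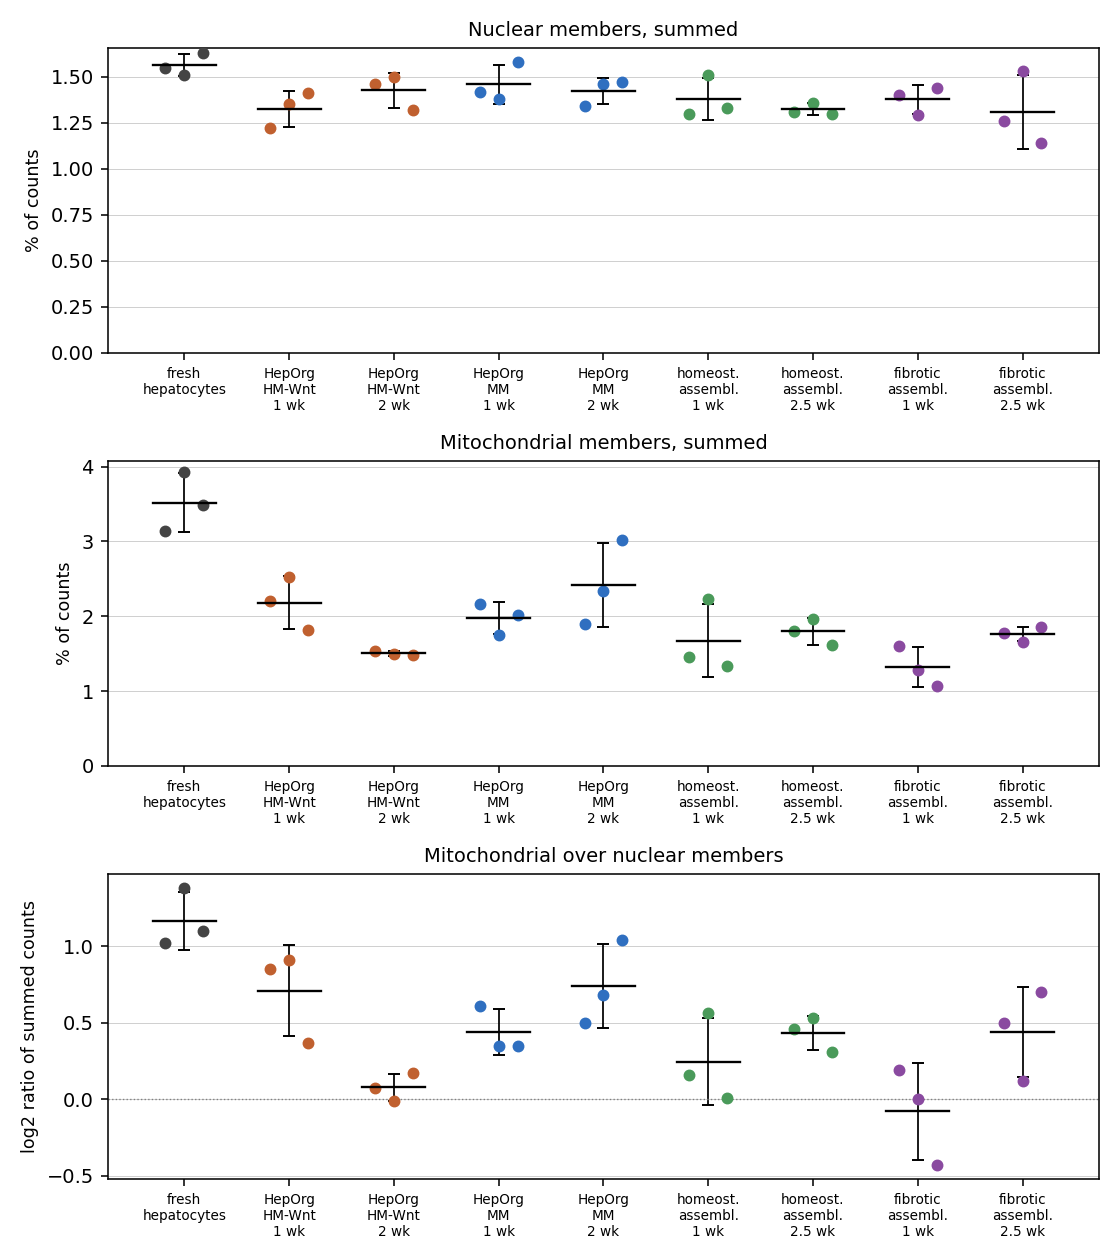
Summed counts of the nuclear members (top, % of all counts), of the mitochondrial members (middle, % of all counts) and the log2 ratio of the 2 sums (bottom) in 27 libraries of 9 conditions. Points are libraries, lines are means and bars are SD (n = 3 each). Mitochondrial members took 3.14 to 3.93% of counts in fresh hepatocytes and at most 3.02% in every other library, while the nuclear share stayed between 1.14 and 1.63%.

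The ratio of the 2 sums compares the genomes within a library and needs no scaling between libraries. The log2 ratio of mitochondrial to nuclear counts was 1.02, 1.38 and 1.1 in fresh hepatocytes, a mean of 1.17 ± 0.19 (SD, n = 3). Over the 12 HepOrg libraries it was 0.49 ± 0.34 (SD, n = 12), and 11 of the 12 lay below all fresh libraries. The difference of −0.68, or 0.624-fold, passed a two-sided exact permutation test over all arrangements of the libraries (p = 0.00659, adjusted p = 0.0264 over the 4 ratio tests). This test takes the 12 libraries as independent, although HepOrg libraries with the same replicate number deviated together. Averaged over the 4 conditions by replicate number, the HepOrg ratio was 0.5, 0.48 and 0.48, below all 3 fresh libraries, and the exact permutation p was 0.1, the smallest that 3 against 3 can give. The adjusted p of this permutation test was 0.176 when fresh hepatocyte replicate 2 was left out, 0.0879 when fresh replicate 3 was, and 0.0549 when the third 2-week HM-Wnt library was. The ratio in HM-Wnt HepOrgs was 0.85, 0.91 and 0.37 at 1 week and 0.07, −0.01 and 0.17 at 2 weeks. In MM HepOrgs it was 0.61, 0.35 and 0.35 at 1 week and 0.5, 0.68 and 1.04 at 2 weeks. The 2 media overlapped at 1 week and did not at 2 weeks, and over both times the difference of 0.19 did not pass a two-sided exact permutation test within time (p = 0.34, adjusted p = 0.35).

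Single members were tested with edgeR's quasi-likelihood test on the counts, and those with an adjusted p (Benjamini-Hochberg over all genes of a comparison) under 0.05 are called higher or lower. The 4 HepOrg conditions were compared with the same fresh libraries, so their results are not independent of each other. Of the 109 members, 90 nuclear and 12 mitochondrial ones had enough counts. In HM-Wnt at 1 week, 43 nuclear members were lower and 4 higher, against 24.8% lower and 24.9% higher among all genes tested (49.7% in either direction), and 8 of the 12 mitochondrial members were lower. In HM-Wnt at 2 weeks, 53 nuclear members were lower and 3 higher (25.7% and 26.1% of all genes, 51.8% in all) and 11 mitochondrial members were lower. In MM at 1 week, 38 nuclear members were lower and 4 higher (21.3% and 21.5% of all genes, 42.8% in all) and 11 mitochondrial members were lower. In MM at 2 weeks, 30 nuclear members were lower and 2 higher (20.0% and 19.7% of all genes, 39.7% in all) and 10 mitochondrial members were lower. No mitochondrial member was called higher in these comparisons. Of the 6 mitochondrial members without a near-complete nuclear copy, 5, 6, 6 and 5 were lower in the 4 conditions in the same order, with median log2 fold changes of −1.16, −2.08, −1.42 and −1.26.

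The median log2 fold change of the nuclear members was −0.478 and −0.582 in HM-Wnt and −0.418 and −0.366 in MM at 1 and 2 weeks, with the median of all genes between −0.0088 and 0.032. That of the mitochondrial members was −0.934, −1.95, −1.46 and −1.26 in the same order. The direction of the nuclear calls depended on the scaling. With library totals in place of TMM factors, 24, 27, 18 and 17 of 90 nuclear members were lower in the 4 conditions, against 16.3, 14.9, 11.9 and 12% of all genes, and 13, 13, 12 and 6 were higher, against 35.1, 44.5, 35.1 and 30.5%. On the log2(TPM + 1) scale 16, 11, 7 and 7 of 87 were lower, against 13.2, 11.1, 9.42 and 9.3% of all genes, and 23, 31, 24 and 17 were higher, against 43.0, 60.4, 46.4 and 39.5%. These scalings moved the median of all genes to between 0.358 and 0.592 and between 0.396 and 0.675, and on each of them the nuclear members stayed below that median, by 0.252 to 0.627. Every call among mitochondrial members was a lower one on all 3 scales. The sum of hepatocyte markers was also lower in every HepOrg library than in the fresh ones, and its part in these differences was not tested.

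**Figure D2:**
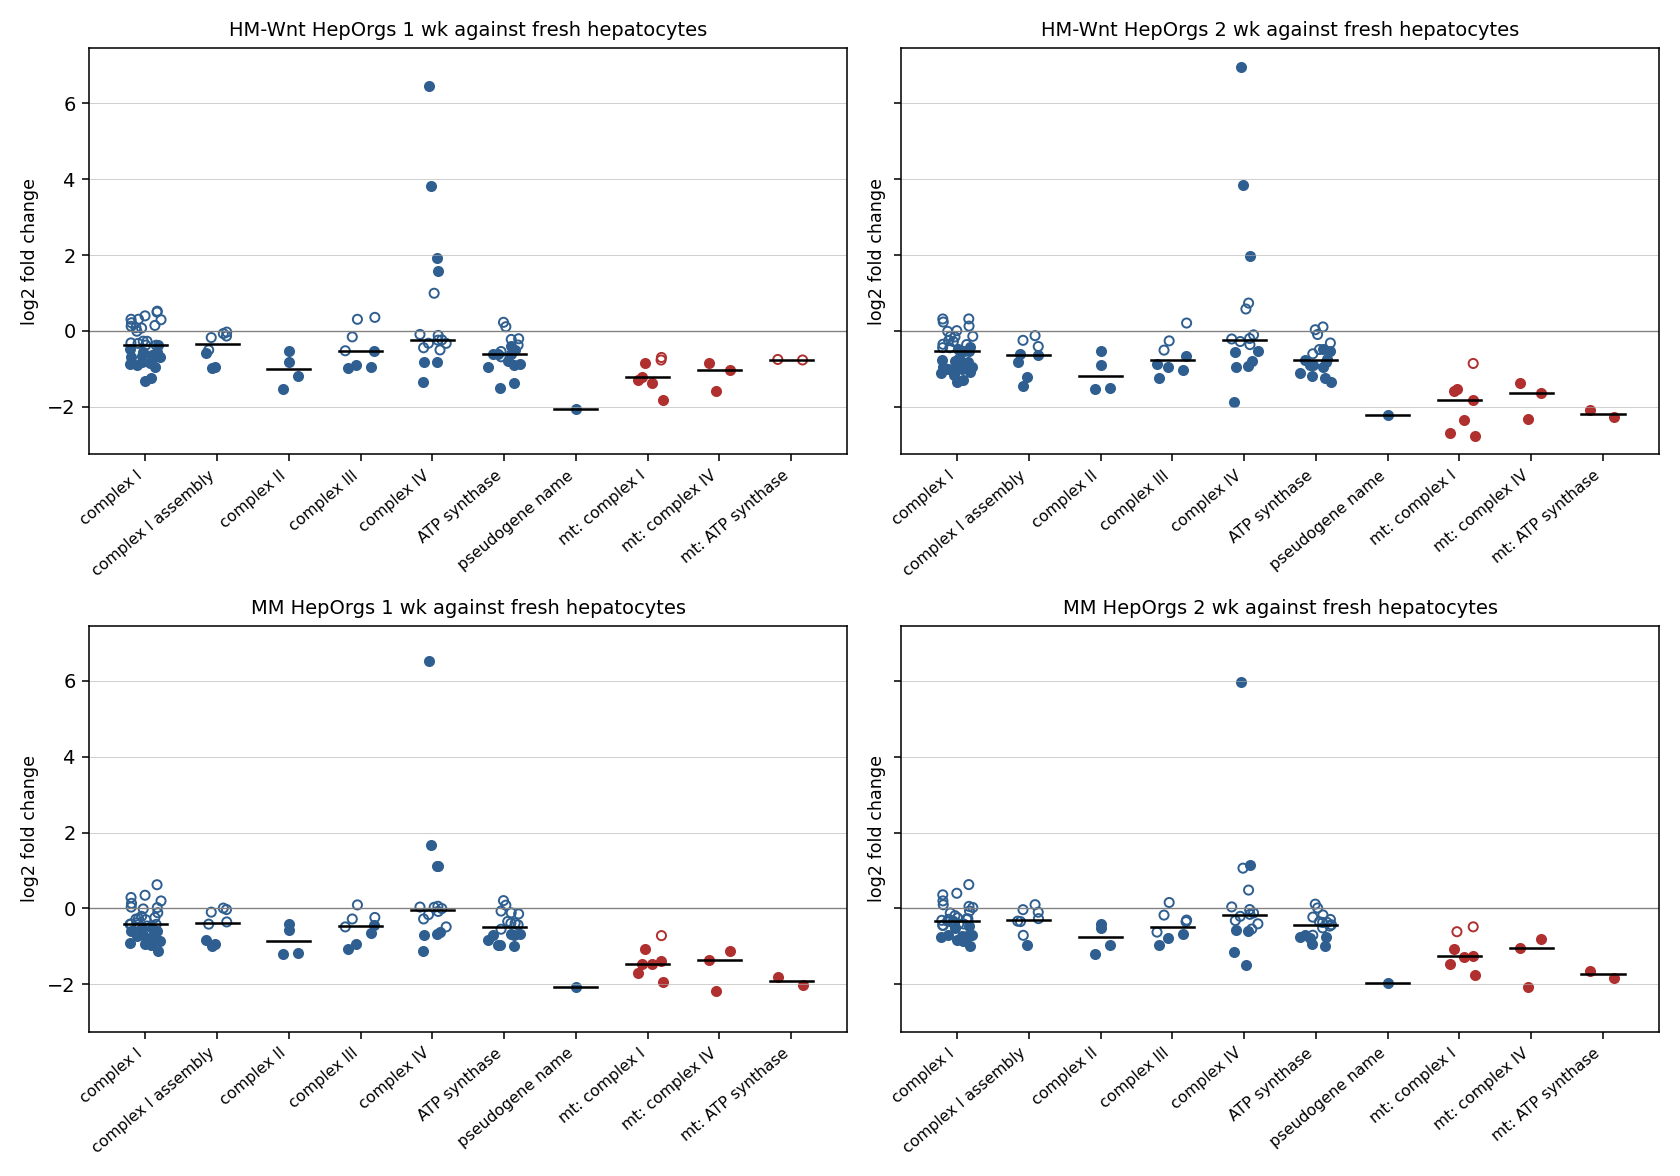
Log2 fold change (TMM scale, vertical axis) of each tested member against fresh hepatocytes, by complex and genome, in 4 HepOrg conditions. Filled points passed edgeR's adjusted p of 0.05, lines are medians, blue is nuclear and red mitochondrial. All filled red points and all 4 subunits of complex II lie below 0, and the highest point in each panel is Ndufa4l2.

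Among the 7 mitochondrial subunits of complex I, 5, 6, 6 and 5 were lower in HM-Wnt at 1 and 2 weeks and MM at 1 and 2 weeks. mt-Nd5, a proton-pumping subunit of the membrane arm (M, 11742 to 13565), was at 5497, 9719 and 5916 CPM in fresh hepatocytes. In HM-Wnt HepOrgs mt-Nd5 was at 2341, 2438 and 1435 CPM at 1 week and at 1072, 1115 and 1006 CPM at 2 weeks. In MM HepOrgs mt-Nd5 was at 2392, 1971 and 1231 CPM at 1 week and at 1974, 1903 and 2377 CPM at 2 weeks. Every HepOrg library was below every fresh one, and the 3 lowest were those in HM-Wnt at 2 weeks. The log2 fold change of mt-Nd5 was −2.76 ± 0.31 (SE, edgeR adjusted p = 1.18e-05) in HM-Wnt at 2 weeks and between −1.93 and −1.75 in the other conditions. mt-Nd2 and mt-Nd6 were lower in all 4 conditions too, as were the counts assigned to the copied mt-Nd4l, and mt-Nd4 in all but HM-Wnt at 1 week. For mt-Nd1, the fold change was −1.53 ± 0.25 (SE, edgeR adjusted p = 0.000236) in HM-Wnt at 2 weeks, and in MM at 2 weeks it did not pass (7454, 10119 and 12102 CPM against 13474, 17671 and 14377 in fresh hepatocytes). The copied mt-Nd3 was called in no condition, and its fresh libraries were at 15.3, 161 and 14.3 CPM, so that replicate 2 set their mean.

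Of the mitochondrial subunits of complex IV, mt-Co1 was lower in all 4 HepOrg conditions. The counts assigned to mt-Co2 and mt-Co3 were lower too, but both lie whole in the nuclear copy, so their levels are not read. Of the length of mt-Co1, 30.1% lies in that copy as well, without a difference. mt-Co1, which holds the oxygen-binding site (M, 5328 to 6872), was at 14862, 16872 and 15426 CPM in fresh hepatocytes. It was at 8640, 9412 and 6088 CPM in HM-Wnt at 1 week and at 5361, 5158 and 4985 CPM at 2 weeks. In MM it was at 7739, 6696 and 7513 CPM at 1 week and at 7399, 9666 and 9961 CPM at 2 weeks. No HepOrg library overlapped the fresh ones. The log2 fold change of mt-Co1 was −1.02 ± 0.21 and −1.64 ± 0.21 in HM-Wnt and −1.12 ± 0.21 and −0.80 ± 0.21 in MM (SE, edgeR adjusted p = 0.00121, 3.04e-05, 0.000805 and 0.0075). Both mitochondrial subunits of the ATP synthase, mt-Atp6 and mt-Atp8, lie in the copy as well. The counts assigned to them were lower in HM-Wnt at 2 weeks and in MM at both times and did not pass in HM-Wnt at 1 week. Outside the rule, mt-Cytb was lower in the 4 conditions, with log2 fold changes of −1.15, −2.34, −2.41 and −2.07.

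Among nuclear subunits of complex I, 17, 20, 14 and 11 of the 35 tested were lower in HM-Wnt at 1 and 2 weeks and MM at 1 and 2 weeks, and none was higher. Counts by complex, here and below, are read against the shares of all genes. In the same order these were 24.8, 25.7, 21.3 and 20.0% lower and 24.9, 26.1, 21.5 and 19.7% higher. The subunits that carry the cofactors were among them. Ndufv1, which binds NADH and the flavin, was at 391, 421 and 354 CPM in fresh hepatocytes and at 125 to 230 CPM in HepOrgs. Its log2 fold change ranged from −1.34 ± 0.16 in HM-Wnt at 2 weeks (SE, edgeR adjusted p = 1.92e-05) to −0.84 ± 0.16 in MM at 2 weeks (SE, edgeR adjusted p = 0.00109). Ndufs1, an iron-sulfur subunit, was at 215, 237 and 208 CPM in fresh hepatocytes and at 83.0 to 128 CPM in HepOrgs, with log2 fold changes of −1.24, −1.30, −0.97 and −0.86. Ndufs7, also an iron-sulfur subunit, passed in HM-Wnt at both times and in MM at 1 week, with log2 fold changes of −0.63, −0.52 and −0.53, and its sign turned on the log2(TPM + 1) scale in the latter 2. Of the 8 assembly factors, which leave the enzyme once it is built, 3, 5, 3 and 1 were lower, and Ndufaf4 was lower in the first 3 conditions.

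Complex II has no mitochondrial subunit, and all 4 of its subunits were lower in all 4 conditions. Sdha (GRCm39, chromosome 13 from 74469359 to 74498436) was at 958, 987 and 814 CPM in fresh hepatocytes. In HM-Wnt HepOrgs it was at 339, 347 and 302 CPM at 1 week and at 348, 346 and 292 CPM at 2 weeks. In MM HepOrgs it was at 393, 414 and 413 CPM at 1 week and at 389, 413 and 393 CPM at 2 weeks. The HepOrg libraries were close together and far below the fresh ones. The log2 fold change of Sdha was −1.53 ± 0.14 and −1.52 ± 0.14 in HM-Wnt and −1.20 ± 0.14 at both times in MM (SE, edgeR adjusted p between 2.76e-06 and 3.1e-05). Sdhb, the iron-sulfur subunit, fell by 1.19, 1.50, 1.18 and 0.97 on the log2 scale. The membrane anchors Sdhc and Sdhd fell by less, between 0.42 and 0.88, and their sign turned on the log2(TPM + 1) scale in 2 conditions each.

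In complex III, 4, 5, 4 and 3 of 8 subunits were lower and none was higher. The core proteins Uqcrc1 and Uqcrc2 and the Rieske iron-sulfur protein Uqcrfs1 were lower in all 4 conditions. Uqcrc1 was at 849, 987 and 855 CPM in fresh hepatocytes and at 331 to 627 CPM in HepOrgs, with log2 fold changes of −0.96, −1.25, −1.06 and −0.96. Uqcrfs1 was at 449, 487 and 448 CPM in fresh hepatocytes and at 207 to 315 CPM in HepOrgs. The small hinge protein Uqcrh did not pass in any condition, with 173, 201 and 199 CPM in fresh hepatocytes and 150 to 299 CPM in HepOrgs.

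The catalytic head of the ATP synthase was lower. Of its 18 nuclear members, 11, 12, 8 and 6 were lower and none was higher. Atp5b, the catalytic beta subunit, was at 2111, 2136 and 1825 CPM in fresh hepatocytes and at 535 to 1129 CPM in HepOrgs. Its log2 fold changes were −1.50, −1.18, −0.95 and −0.95, and its exons lie under other annotated transcripts on both strands. Atp5a1, the alpha subunit, was at 1415, 1577 and 1260 CPM in fresh hepatocytes and at 520 to 795 CPM in HepOrgs, with log2 fold changes of −1.37, −1.24, −0.98 and −0.98. Atpif1, which inhibits the ATP synthase when it would run in reverse and is no member by name, went the other way. It was at 19.3, 23.2 and 24.5 CPM in fresh hepatocytes and at 101 to 186 CPM in HepOrgs, with log2 fold changes of 2.59 ± 0.22, 2.23 ± 0.22, 2.50 ± 0.22 and 2.56 ± 0.22 (SE, edgeR adjusted p between 1.2e-06 and 3.4e-06).

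On the TMM scale complex IV was the only complex with nuclear members called higher. Of 16 tested, 3, 6, 4 and 4 were lower and 4, 3, 4 and 2 higher. Of all genes, 24.8, 25.7, 21.3 and 20.0% were lower and 24.9, 26.1, 21.5 and 19.7% higher. The numbers called higher in complex IV thus lay near or under the shares of all genes. Those called higher were isoforms and relatives of common subunits, and the pair of Ndufa4 and Ndufa4l2 was the clearest. Ndufa4, a subunit of complex IV that was first ascribed to complex I, occupies 11897630 to 11907496 of chromosome 6 (GRCm39). Its level was 572, 433 and 533 CPM in fresh hepatocytes, at 167, 285 and 176 CPM in HM-Wnt at 1 week and at 139, 168 and 122 CPM at 2 weeks. In MM it was at 271, 289 and 147 CPM at 1 week and at 255, 243 and 193 CPM at 2 weeks. All 12 HepOrg libraries were below the fresh ones, and the log2 fold changes were −1.35 ± 0.28, −1.88 ± 0.29, −1.13 ± 0.28 and −1.14 ± 0.28 (SE, edgeR adjusted p = 0.00154, 0.000129, 0.00573 and 0.00574).

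Ndufa4l2, the paralogue of Ndufa4 that is known to be induced in hypoxia, lies on chromosome 10 from 127350818 to 127353038. It was at 1.68, 2.54 and 2.01 CPM in fresh hepatocytes. In HM-Wnt HepOrgs it was at 133, 170 and 275 CPM at 1 week and at 371, 215 and 231 CPM at 2 weeks. In MM HepOrgs it was at 177, 113 and 302 CPM at 1 week and at 83.9, 158 and 150 CPM at 2 weeks. Fresh and HepOrg libraries were far apart, and the log2 fold changes of 6.46 ± 0.47, 6.97 ± 0.48, 6.52 ± 0.47 and 5.96 ± 0.46 (SE, edgeR adjusted p between 2.36e-07 and 9.7e-07) were the highest of any member in each condition. The assembloids, also kept in MM, were at 25.3, 0.0 and 1.56 CPM (homeostatic, 1 week) and 20.2, 7.99 and 1.44 CPM (homeostatic, 2.5 weeks). The fibrotic-like assembloids were at 3.56, 23.4 and 0.301 CPM at 1 week and 2.64, 35.8 and 3.17 CPM at 2.5 weeks. No assembloid library reached the lowest HepOrg library. Alb was at 3899 to 26401 CPM in HepOrgs and at 526 to 14966 CPM in assembloids. The part of hepatocyte content in the difference of Ndufa4l2 was not tested. Of the exon length of Ndufa4l2, 63.3% lies under Shmt2 on the other strand, so that reads of the 2 genes cannot be told apart there without strand. Shmt2 itself was at 299, 436 and 331 CPM in fresh hepatocytes and at 126 to 312 CPM in HepOrgs. In homeostatic assembloids Shmt2 was at 315, 0.0 and 143 CPM at 1 week and at 210, 217 and 191 CPM at 2.5 weeks. In fibrotic-like assembloids Shmt2 was at 79.9, 101 and 59.4 CPM at 1 week and at 147, 83.8 and 163 CPM at 2.5 weeks. How many of the reads counted for Ndufa4l2 came from Shmt2 was not tested.

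**Figure D3:**
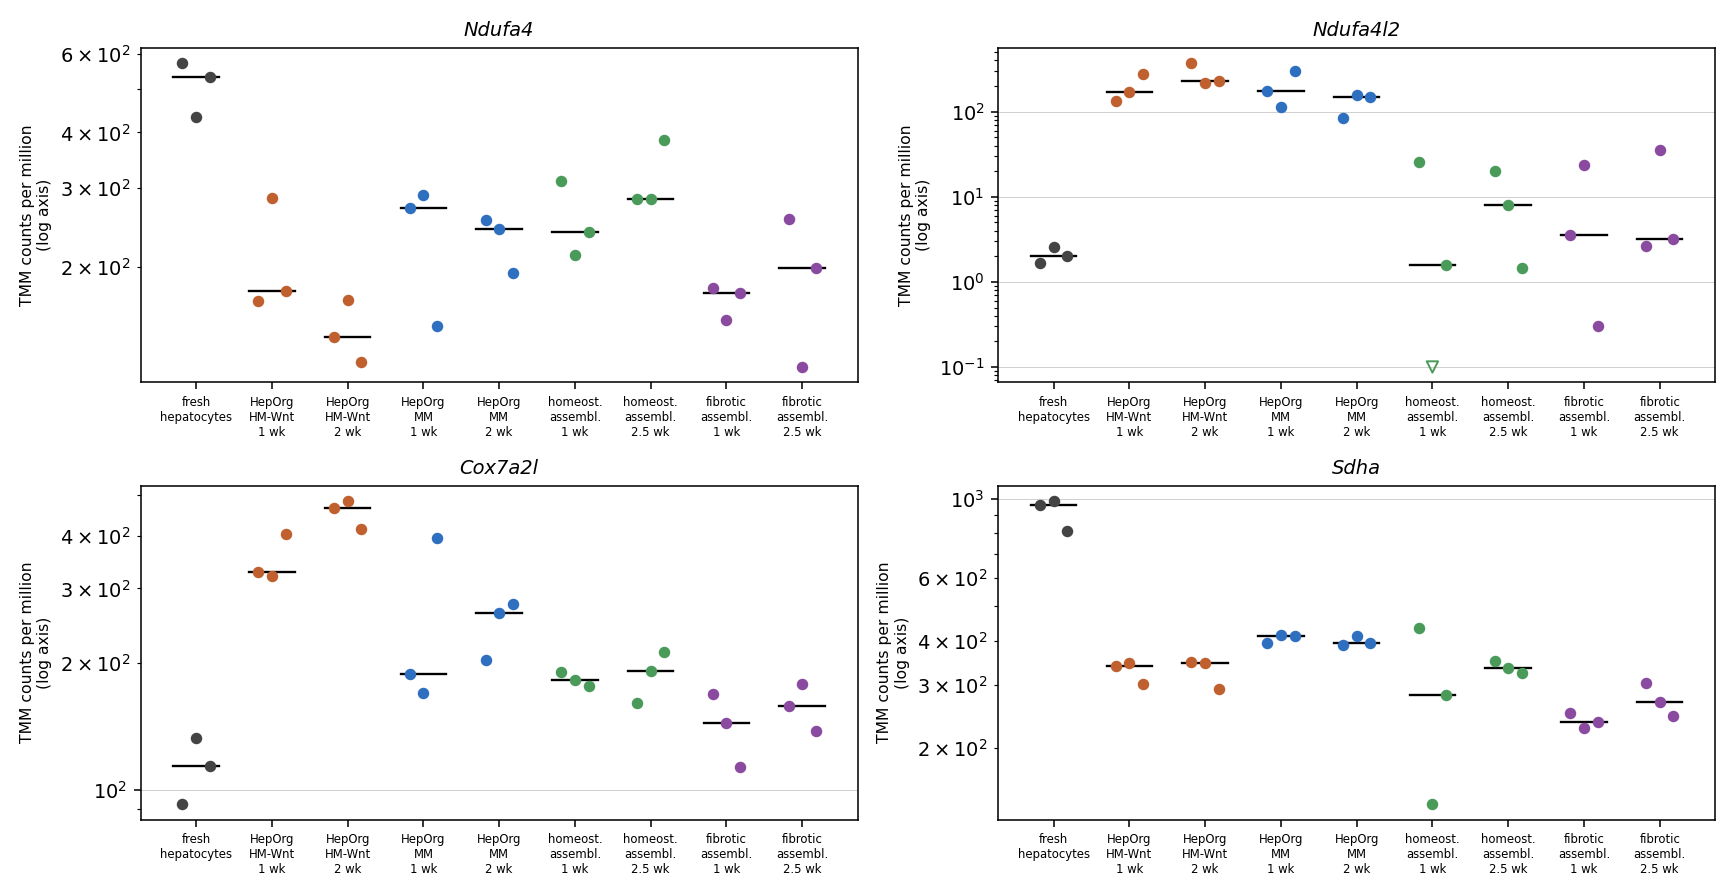
TMM-normalised CPM (log axes) of Ndufa4, Ndufa4l2, Cox7a2l and Sdha in 27 libraries of 9 conditions. Points are libraries, lines are medians, and the open triangle is a library at 0. Ndufa4l2 was at 1.68 to 2.54 in fresh hepatocytes, at 83.9 to 371 in HepOrgs and at no more than 35.8 in assembloids.

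Cox7a2l, known for its part in joining complexes III and IV into supercomplexes, was the other nuclear member higher in all 4 conditions. It was at 92.3, 133 and 114 CPM in fresh hepatocytes and at 329, 321 and 403 CPM in HM-Wnt at 1 week. It was at 465, 484 and 414 CPM in HM-Wnt at 2 weeks, at 188, 170 and 395 CPM in MM at 1 week and at 203, 263 and 275 CPM in MM at 2 weeks. No HepOrg library overlapped the fresh ones, and the log2 fold changes were 1.59 ± 0.27, 1.97 ± 0.28, 1.12 ± 0.27 and 1.13 ± 0.27 (SE, edgeR adjusted p = 0.000365, 6.58e-05, 0.00472 and 0.00465). Of its annotated exon length, 78.1% lies under other genes, Eml4 among them, which was at 13.0 to 21.4 CPM in fresh hepatocytes and 13.3 to 39.6 CPM in HepOrgs.

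The other isoforms called higher were low in level. Cox6b2, known from testis, was at 0.559, 0.0875 and 0.0609 CPM in fresh hepatocytes. It was at 2.85, 4.69 and 5.42 CPM in HM-Wnt at 1 week and 4.18, 4.7 and 4.25 CPM at 2 weeks, with log2 fold changes of 3.82 ± 0.69 and 3.86 ± 0.69 (SE, edgeR adjusted p = 0.000544 and 0.000471). In MM, Cox6b2 passed at 1 week (1.68 ± 0.64, edgeR adjusted p = 0.047; 0.0753 with the replicate number as a block) and not at 2 weeks. Cox7a1, the muscle form of its subunit, passed at 1 week in both media, with log2 fold changes of 1.91 and 1.12. Their common counterparts Cox6b1, at 361 to 396 CPM in fresh hepatocytes and 238 to 462 in HepOrgs, and Cox7a2, at 252 to 296 and 180 to 317 CPM, did not pass in any condition. The same held for Cox6a1 and Cox8a.

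Of the 90 nuclear members tested, 29 were lower and 2 higher in all 4 conditions, and 31 were called in none. The share of all genes called alike in all 4 is not given here, and the 4 comparisons share the fresh libraries. These counts are therefore not read as particular to the members. The palindrome was found in 4 of the 22 promoters present among the 29 lower members (18.2%) and in 6 of the 26 among the members called in none (23.1%), so the shares lay close together. Cox5b-ps, named as a pseudogene of Cox5b, was lower in all 4 conditions, at 18.5, 4.95 and 18.4 CPM in fresh hepatocytes and 2.03 to 4.35 CPM in HepOrgs.

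The genes around the chain were taken as lists. Their counts are read against the shares of all genes given above, 24.8, 25.7, 21.3 and 20.0% lower and 24.9, 26.1, 21.5 and 19.7% higher. Of 13 genes of the tricarboxylic acid cycle, 10, 10, 7 and 6 were lower and 1, 1, 0 and 0 higher in HM-Wnt at 1 and 2 weeks and MM at 1 and 2 weeks. Idh3b, a subunit of isocitrate dehydrogenase, had log2 fold changes of −1.83, −1.51, −1.10 and −1.08. Of 5 tested carriers and dehydrogenases that feed the chain, 2, 4, 2 and 2 were lower and 0, 0, 0 and 1 higher, with Etfa and Etfdh of fatty acid oxidation lower in each condition. Of 13 genes that copy and transcribe mitochondrial DNA, 7, 9, 5 and 3 were lower and 1, 0, 1 and 1 higher, and Polg2, the accessory subunit of the mitochondrial DNA polymerase, had log2 fold changes of −1.57, −1.87, −1.36 and −1.47. Of 24 tested assembly factors of other complexes, 9, 11, 9 and 7 were lower and 3, 1, 1 and 1 higher, with Uqcc2, which serves complex III, higher in each condition. Of 74 mitochondrial ribosomal proteins, 16, 26, 14 and 8 were lower and 5, 5, 3 and 5 higher, with medians of −0.0697, −0.236, −0.227 and −0.0599, so that only the lower share in HM-Wnt at 2 weeks exceeded that of all genes.

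Of 8 nuclear regulators of the chain, 3, 3, 3 and 2 were lower and 2, 2, 2 and 1 higher. Ppargc1a, the coactivator PGC-1α that drives mitochondrial genes, was at 14.4, 13.3 and 7.31 CPM in fresh hepatocytes and at 0.86 to 2.77 CPM in HepOrgs. Its log2 fold changes were −2.72, −2.98, −2.66 and −2.84. Its relative Ppargc1b was also lower in each condition (−2.07, −2.08, −1.36 and −1.51). Pprc1, the third of the family, was higher in each (0.76, 1.26, 1.15 and 1.00). Nrf1 was not called in any of the 4.

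MM was compared with HM-Wnt HepOrgs to see whether the chain followed the medium. At 1 week, 1 nuclear and 0 mitochondrial members were called, against 2.98% of all genes (1.76% higher, 1.22% lower). The member was Cox6b2, with 0.68, 1.35 and 0.729 CPM in MM and a log2 fold change of −2.16 ± 0.47 (SE, edgeR adjusted p = 0.0369). At 2 weeks, of the 90 nuclear and 12 mitochondrial members tested, 7 were higher in MM and 2 lower, against 6.84% and 4.61% of all genes (11.5% in all). In all, the members were thus called no more often than all genes. The 7 were mt-Nd6, mt-Nd2, mt-Nd5, mt-Nd1, mt-Co1, Atp5g1 and Ndufb3, so that 5 of 12 mitochondrial and 2 of 90 nuclear members were higher.

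At 2 weeks the 3 MM libraries of mt-Nd5 were all above the 3 HM-Wnt libraries, and its log2 fold change was 1.03 ± 0.27 (SE, edgeR adjusted p = 0.0324). mt-Nd6 was at 286, 292 and 379 CPM in MM and at 139, 142 and 140 CPM in HM-Wnt, with a log2 fold change of 1.24 ± 0.36 (SE, edgeR adjusted p = 0.0492). mt-Nd2, mt-Nd1 and mt-Co1 differed by 1.07 ± 0.25, 0.93 ± 0.25 and 0.86 ± 0.21. Atp5g1, which encodes subunit c of the proton-driven rotor, was at 252, 278 and 206 CPM in MM and at 137, 168 and 97.4 CPM in HM-Wnt. Cox6b2 was lower in MM at 2 weeks, with a log2 fold change of −2.79 ± 0.49 (SE, edgeR adjusted p = 0.00561). Cox4i2 was at no more than 3 counts in each MM library at 2 weeks, at least 4.26-fold lower than in HM-Wnt and at least 2.51-fold lower than in fresh hepatocytes, with 3 counts per library as the floor. The call of Cox4i2 against fresh hepatocytes was lost with the replicate number as a block (edgeR adjusted p = 0.0593).

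Libraries with the same replicate number deviated together in the HepOrgs, and with the replicate number as a block the counts at 2 weeks were 17 higher and 4 lower of 102, against 11% and 8.6% of all genes, among them Ndufa4 (0.76), Ndufv1 (0.52), Ndufs1 (0.45) and Sdhd (0.48) higher and Cox7a2l (−0.85) lower in MM. With the block, Uqcrh joined Cox6b2 at 1 week, where 9.48% of all genes were called. The calls at 2 weeks rested on single libraries: their number was 1 without replicate 1 of HM-Wnt, 5 without its replicate 2, 2 without its replicate 3, 3 without replicate 1 of MM and 1 without its replicate 2. At 1 week the single call was lost without HM-Wnt replicate 2 or 3 or MM replicate 1 or 2. The change of the medium difference from 1 to 2 weeks was tested itself. In edgeR 13 members had an unadjusted p under 0.05, against 7.32% of all genes. Of these 13, 10 were mitochondrial, among them the copied mt-Atp6, mt-Atp8, mt-Nd4l and mt-Co2, whose counts are not read as levels. After adjustment edgeR called 0 members, as it called 0.0% of all genes, while DESeq2 called 1 member and 0.354% of all genes. The effect at 2 weeks is thus not shown to differ from that at 1 week.

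**Figure D4:**
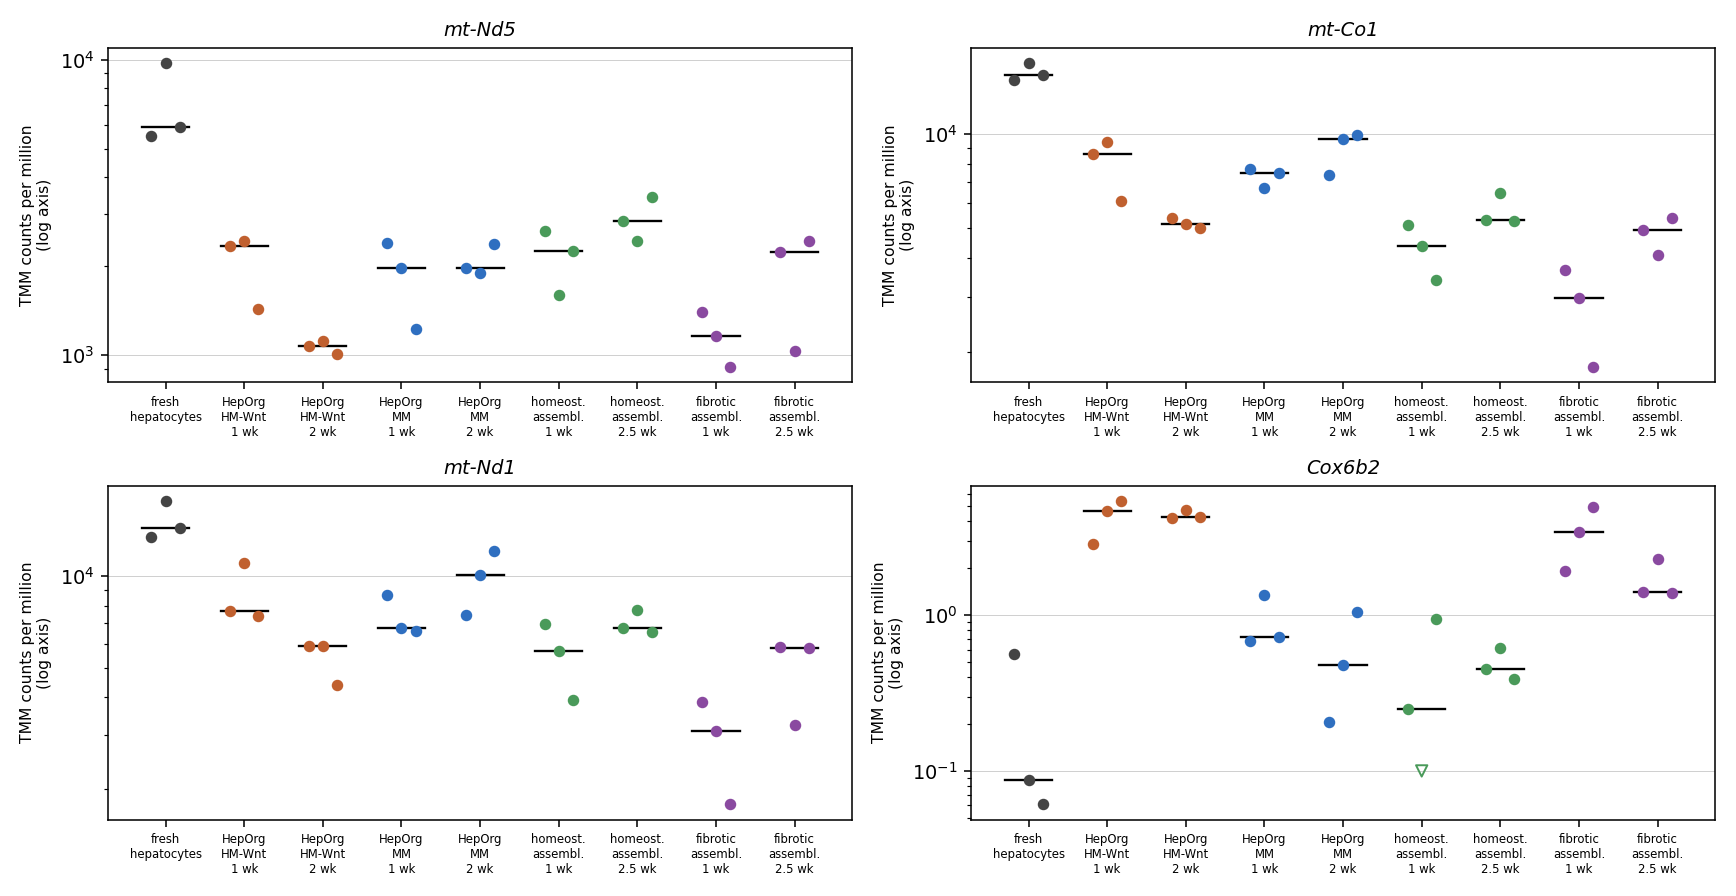
TMM-normalised CPM (log axes) of mt-Nd5, mt-Co1, mt-Nd1 and Cox6b2 in 27 libraries of 9 conditions. Points are libraries, lines are medians, and the open triangle is a library at 0. The 3 mitochondrial genes were lowest among HepOrgs in HM-Wnt at 2 weeks, and Cox6b2 was at 2.85 to 5.42 in HM-Wnt and at 0.207 to 1.35 in MM HepOrgs.

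Fibrotic-like and homeostatic assembloids differ in the number of mesenchymal cells added. edgeR called 0 members at 1 week and 0 at 2.5 weeks, as it called 0.0% of all genes at each time. The 0.0% at 2.5 weeks depended on the fit shared with the 1-week libraries. With only the 2 groups of 2.5 weeks in the fit, 727 of 13355 genes were called higher and 11 lower. In simulated data for the 1-week comparison, edgeR recovered 0% of 200 genes shifted by 2 on the log2 scale. Of 200 shifted by 4 it recovered 35%. With a shift of 2 it recovered 82.5% for MM HepOrgs at 2 weeks against fresh hepatocytes and 89% for MM against HM-Wnt at 2 weeks. The 0 calls at 1 week thus cannot tell unchanged members from changed ones that the test would miss. At 1 week 45 of 102 members had an unadjusted p under 0.05 (14.1% of all genes), DESeq2 called 11 (6.08% of all genes) and a fit of all 27 libraries called 16 (6.21% of all genes). At 2.5 weeks 11 members had an unadjusted p under 0.05 (6.62% of all genes), and DESeq2 called 0 (1.92% of all genes). The median log2 difference of the nuclear members was −0.609 at 1 week and −0.491 at 2.5 weeks, and that of the mitochondrial members was −0.923 and −0.456, with 0.199 and 0.0293 over all genes. Sdha, for example, was at 434, 139 and 282 CPM in homeostatic and 251, 228 and 237 CPM in fibrotic-like assembloids at 1 week, and the groups overlapped.

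The number called at 1 week depended on replicate 2 of the homeostatic assembloids. It also depended on the test used and on the libraries fitted together, as given above. Without this replicate, 25 nuclear members were lower in fibrotic-like assembloids and none was higher, against 4.87% and 3.14% of all genes. Among the 25 were Uqcrq (−1.47), Atp5g1 (−1.45), Uqcrfs1 (−1.10) and Ndufs1 (−0.68). Leaving out replicate 3 of the fibrotic-like assembloids as well, the other library low in Alb, returned the members' count to 0, while 1.87% of all genes were called. That setting has fewer libraries in both groups, so the loss of a library and its content cannot be told apart. The sum of 8 mesenchyme markers was 150 to 981 CPM in homeostatic and 315 to 6603 CPM in fibrotic-like assembloids at 1 week, and that of hepatocyte markers was 908 to 28626 and 1656 to 14773 CPM. Their part in the difference was not tested.

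The log2 ratio of mitochondrial to nuclear counts was 0.16, 0.56 and 0.01 in homeostatic assembloids at 1 week and 0.46, 0.53 and 0.31 at 2.5 weeks. In fibrotic-like assembloids it was 0.19, 0.0 and −0.43 at 1 week and 0.5, 0.12 and 0.7 at 2.5 weeks. The groups overlapped, and the difference of −0.16 did not pass a two-sided exact permutation test within time (p = 0.35, adjusted p = 0.35). The 6 assembloid libraries of 1 week had a mean of 0.08 ± 0.32 against 0.43 ± 0.15 in the 3 MM HepOrg libraries of 1 week (SD), a difference of −0.35 that did not pass either (two-sided exact permutation test, p = 0.119, adjusted p = 0.238). All 12 assembloid libraries were below the lowest fresh library in this ratio.

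Of the 7 members without enough counts for a test, Cox6a2, Cox7b2, Cox8b and Cox8c are isoforms known from muscle or testis, and Ndufb11b is a further copy by name. Ndufa13 and Ndufb8 are subunits of complex I. The annotation places other genes over 100.0% of the exon length of Ndufa13 (Yjefn3 and Tssk6) and over 97.6% of that of Ndufb8 (Gm20538), and their counts cannot be read as low expression.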

How the data were processed

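The authors made SMARTseq2 libraries. According to the study's methods and the submitters' notes, STAR aligned the reads to GRCm39, and featureCounts gave 1 count per gene. The authors deposited these counts, whole and unscaled, beside a TPM value. Of 37 libraries in the table, 27 carry a labelled condition and 10 were not used. The TPM were computed by the authors with a length that lies within 5% of the whole gene span for 80.8% of genes, and served only an alternative.

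The main test was edgeR 4.0.16 under R 4.3.3: TMM factors, genes kept by filterByExpr (count at least 10, total at least 15), a quasi-likelihood test with a prior count of 2, and Benjamini-Hochberg adjustment over all genes of a comparison at a threshold of 0.05. The 3 fits held 15 libraries (fresh hepatocytes and HepOrgs), 12 HepOrg libraries and 12 assembloid libraries, with 1 mean per condition. CPM in the text also reflect gene length and are compared within a gene. Ratios of summed counts were compared with two-sided exact permutation tests, adjusted over 4 tests. Positions and copies came from GRCm39 with its GENCODE annotation, and promoters from RefSeq (GRCm38.p6). Of 96 nuclear names, 77 had a promoter.

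The rule for named genes took all mitochondrial members, the catalytic core with Atpif1, isoform pairs, up to 3 highest and 3 lowest called members per comparison, and the most abundant members of each complex. Of the genes that the rule takes, 1 is not reported here by name and stays in the counts. Members named beyond it were chosen after their values were seen. The members and lists were chosen with earlier results of these data known. Alternatives were RLE factors, TMM without mitochondrial genes, library totals, DESeq2 1.42.0, other count filters, limma 3.58.1 on log2(TPM + 1), the 2 groups alone, all 27 libraries, a replicate block, and leaving out each library. Steps were tested on simulated data. Same-numbered HepOrg libraries of different conditions had correlated deviations from their group means, over 0.1 in 18 of 18 pairs (0.127 to 0.503) against 2 of 36 pairs with different numbers. What a shared number means is not stated in the labels.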

Additional observations from a re-analysis of the deposited data

How the results depend on the processing

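Among the named members that passed, no direction turned with DESeq2, RLE factors or TMM without mitochondrial genes. Library totals (chosen after seeing the data) and log2(TPM + 1) turned signs in HepOrgs against fresh hepatocytes, and neither turned that of a mitochondrial member. In HM-Wnt at 2 weeks, the 2 scales gave 0.0327 and 0.2818 for Cox4i1, 0.0333 and 0.2906 for Ndufs7, and 0.0505 and 0.2998 for Sdhc, and log2(TPM + 1) gave 0.0195 for Cox5b. In MM at 1 week, they gave 0.0137 and 0.2004 for Sdhd, and log2(TPM + 1) gave 0.0877 for Ndufs7 and 0.0626 for Sdhc. In MM at 2 weeks, log2(TPM + 1) gave 0.0944 for Sdhd. The cause was not tested.

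Against fresh hepatocytes, the fit of all 27 libraries called 29 members in HM-Wnt at 1 week, 33 in MM at 1 week and 25 in MM at 2 weeks, instead of 55, 53 and 42. Leaving out 1 library gave 42 to 61, 54 to 68, 42 to 50 and 32 to 40 members in HM-Wnt at 1 and 2 weeks and MM at 1 and 2 weeks.

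For MM against HM-Wnt at 1 week (1 member), DESeq2 called 3, the replicate block 2, and library totals, at least 10 counts in every library, the 2 groups alone and all 27 libraries 0, and leaving out 1 library gave 0 to 1. At 2 weeks (9 members), DESeq2 called 16, log2(TPM + 1) 5, the replicate block 21 and all 27 libraries 0, and leaving out 1 library gave 1 to 7. For the change of this difference DESeq2 called 1, and leaving out 1 library gave 0 to 0. For fibrotic-like against homeostatic assembloids at 1 week (0 members), DESeq2 called 11, log2(TPM + 1) 1 and all 27 libraries 16, and leaving out 1 library gave 0 to 25. At 2.5 weeks, and for the change between the times, leaving out 1 library gave 0 to 0.

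Leaving out 1 library moved the ratio difference between −0.7543 and −0.572 for HepOrgs against fresh hepatocytes, between 0.1039 and 0.2978 for MM against HM-Wnt, between −0.265 and −0.0382 for fibrotic-like against homeostatic assembloids, and between −0.4504 and −0.2514 for assembloids against MM HepOrgs. With HepOrg libraries averaged by replicate number (chosen after seeing the data), the first was −0.6796 with p = 0.1 in an exact permutation test. The last turned to 0.23 with the median of log2 CPM in place of sums. Paired by replicate number, the ratio of MM against HM-Wnt had p = 0.438 in an exact permutation test of signs. The same-numbered assembloids had correlations over 0.1 in only 6 of 18 pairs, and the block called 0 members there. Among named members against fresh hepatocytes, whose numbers paired with those of HepOrgs in only 2 of 12 cases, the block took away the calls of Cox6b2 in MM at 1 week and Cox4i2 in MM at 2 weeks and changed no other.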
